A study of Ceratina calcarata with 12 samples.

Results

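Isolated methylated CpGs are CpG dinucleotides that carried methylated reads but had no other listed CpG close to them in the genome of the small carpenter bee Ceratina calcarata. They were found by position. A CpG was kept if every bisulfite library covered it with 1 to 170 reads, and it was isolated if it was the only kept CpG in its fixed window of 200 bp and no other listed CpG lay within 1000 bp on its scaffold. This gave 9778 isolated CpGs, or 3.58% of the 273427 CpGs kept from 278132 listed. A further 468 listed CpGs were as far from their neighbours but were not kept, 226 for coverage above 170 and 242 for coverage of 0 in some library. DNA came from the heads of newly eclosed adult bees whose nests were brought to the laboratory in stems of Rhus typhina. In the care group the brood grew up with the mother in the nest, and in the orphaned group the mother was taken away and the brood was reared without her. Each group had 3 libraries, and each library was a pool of 9 heads from females of different nests. The spread between libraries is therefore one between pools of mixed head tissues, not between single bees or cell types.

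In bees, DNA methyltransferases place methyl groups mainly on cytosines of CpG dinucleotides within gene bodies, with an excess in exons near the 5′ end of genes that are expressed in most cells. Methylated CpGs in such genomes tend to come in runs, separated by long unmethylated stretches. Bisulfite treatment converts unmethylated cytosine so that it reads as thymine, and methylated cytosine is left. The methylation level of a CpG is the share of its reads that kept the cytosine. Cytosines that escape conversion read as methylated too, and unmethylated DNA of phage lambda was added to every library to measure how often this happened. Gene models were not placed on the scaffolds here, so whether an isolated CpG lies in an exon, an intron or outside genes was not analysed here.

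The listing of a CpG used its own methylated reads, since by the study's methods CpGs were filtered with a binomial test against incomplete conversion in any library. Every listed CpG had some methylated reads, but when the test was repeated here against the lambda rate, 308 of those not kept had a p above 0.00581, the highest among kept CpGs, in every library. A level over these CpGs is not a level over the genome. Coverage of the isolated CpGs was close to that of CpGs in windows with at least 2 kept CpGs, whose medians were 16 to 29 reads. Care replicates 1, 2 and 3 covered them at a median of 17, 33 and 17, and orphaned replicates 1, 2 and 3 at 25, 22 and 21 reads. At least 10 reads in every library were found at 5918 isolated CpGs (60.5%). Intervals and upper limits given here are 95% Wilson intervals and limits of 3 reads, and they cover counting error only.

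The level at isolated CpGs was low in every library, with the reads that listed them counted in. Values without those reads are given further below. The level averaged over CpGs was 3.75%, 3.44% and 2.91% in care replicates 1, 2 and 3. It was 2.91%, 2.67% and 3.38% in orphaned replicates 1, 2 and 3, so the groups overlapped. Counted over reads, 1.98% to 2.47% of reads at isolated CpGs were methylated, which rested on 196449 to 363485 reads per library. The mean of the 6 library levels had a median of 2.63% over the isolated CpGs, and the middle of the distribution ran from 1.54% (lower quartile) to 3.70% (upper quartile). Levels above 10% were found at 210 isolated CpGs (2.15%), above 20% at 45 and above 50% at 5.

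The next most similar CpGs were 18980 that were also alone in their 200 bp window but had a listed CpG within 1000 bp. Their level averaged 12.5% ± 0.451 in care and 12.2% ± 0.144 in orphaned libraries (SD, n = 3 pools each). Isolated CpGs lay below them in all 6 libraries, and the difference was -9.17 ± 0.312 percentage points (SD, n = 6 libraries, exact sign-flip permutation test, two-sided, p = 0.031, the smallest that 6 libraries allow). The remaining 244669 kept CpGs shared a window with at least 1 other and had levels of 27.9% to 29.4%. Isolated CpGs were lower than these too, with a difference of -25.5 ± 0.366 percentage points and the same direction in all 6 libraries (exact sign-flip permutation test, p = 0.031, n = 6). CpGs alone in their window but near another were covered by fewer reads, with medians of 9 to 16. With at least 10 reads required in every library the difference from them was -9.76 points and that from the CpGs in shared windows was -23.4 points, so both kept their direction at a common minimum depth. The reads that listed a CpG count in its level, and isolation depends on which neighbours were listed. The p values of these gaps are therefore not independent of the listing. Over CpGs listed by another library, described below, the share of methylated reads had the same order.

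**Figure D1:**
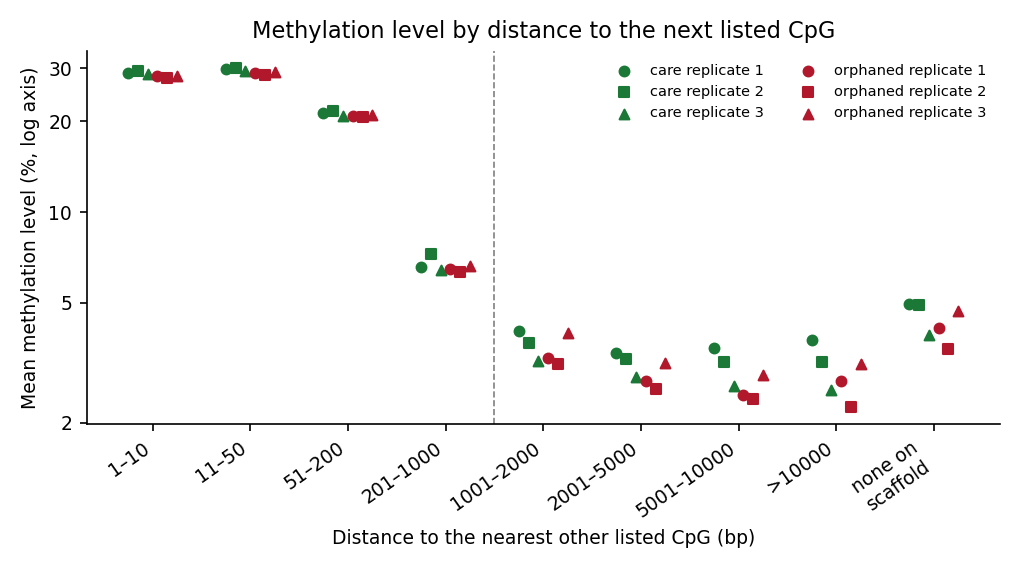
Mean methylation level (%, log axis) of kept CpGs in each of the 6 libraries, by distance in bp to the nearest other listed CpG. Green symbols are care and red symbols are orphaned libraries, and the dashed line marks 1000 bp, to the right of which all CpGs are isolated. Levels lie between 27.9% and 30.1% up to 50 bp and between 2.26% and 4.04% beyond 1000 bp, and CpGs with no listed neighbour on their scaffold lie between 3.50% and 4.94%.

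The level was similar up to 50 bp, declined from there to 1000 bp and changed little after that. Averaged over libraries, it was 28.6% for CpGs within 10 bp of another listed CpG, 29.3% at 11 to 50 bp, 21.1% at 51 to 200 bp and 6.62% at 201 to 1000 bp. Among isolated CpGs it was 3.55% at 1001 to 2000 bp, 3.00% at 2001 to 5000 bp, 2.85% at 5001 to 10000 bp and 2.94% beyond 10000 bp. Median coverage changed with distance too, so these levels are not matched for depth. It was 25.7 reads within 10 bp, 19.3 at 11 to 50 bp, 12 at 51 to 200 bp, 14.7 at 201 to 1000 bp and 22.8 at 1001 to 2000 bp. The limit of 1000 bp did not coincide with a step. The 526 isolated CpGs with a neighbour at 1001 to 1200 bp had a mean level of 3.83%, and the 745 CpGs just outside the definition, at 801 to 1000 bp, had 3.89%. The share with methylated reads in a single library was 51.5% inside and 48.1% outside.

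Of the isolated CpGs, 9017 had another listed CpG on their scaffold, at a median distance of 4217 bp. The most remote was at position 133446 of scaffold371.2, with the nearest listed CpG 80647 bp away. It had 2 methylated reads among 10 in care replicate 2 and 0 among the 26 reads of the other 5 libraries. The next with listed CpGs on both sides, at position 88101 of scaffold192, was 74710 bp from its neighbour, with 2 methylated reads of 13 in the same library and none in the others. The other 761 isolated CpGs (7.78%) were the only listed CpG of their scaffold. These had a higher mean level of 4.35% and a lower median coverage of 13 reads, against 22.3 to 25.5 reads in the other distance classes beyond 1000 bp. Isolated CpGs were spread over 1355 of the 2149 scaffolds that hold listed CpGs. The 20 scaffolds with the most kept CpGs held 38.0% of all kept CpGs but 17.5% of the isolated ones, and the isolated share on these scaffolds ran from 0.378% on scaffold154.2 to 4.90% on scaffold25.

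Isolated CpGs often showed methylated reads in a single pool of heads. Of the 9778, 5848 (59.8%) had methylated reads in 1 library, 2584 (26.4%) in 2, 873 (8.93%) in 3, 292 (2.99%) in 4, 127 (1.30%) in 5 and 54 (0.552%) in all 6. In windows with at least 2 kept CpGs the order was turned round, with 1.68% of CpGs methylated in 1 library and 60.2% in all 6. CpGs alone in their window near another one lay between, at 3662 of 18980 (19.3%) in 1 library and 2272 in all 6. The contrast was also present at a common minimum depth. Among CpGs with at least 10 reads in every library, 50.7% of isolated CpGs and 0.744% of those in shared windows had methylated reads in a single library. For isolated CpGs this share went down with mean coverage, from 76.5% under 10 reads to 49.5% at 30 to 50 and 35.9% at 50 or more.

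**Figure D2:**
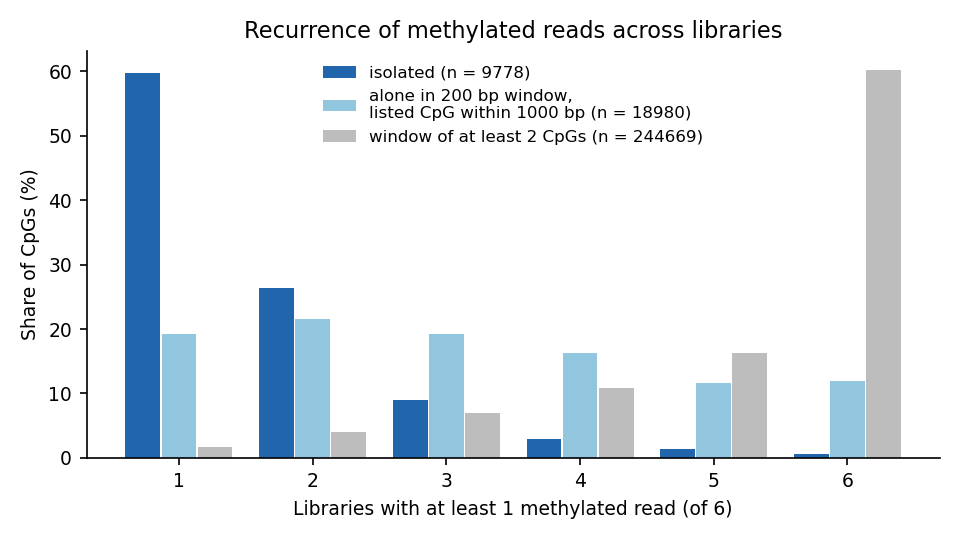
Share of CpGs (%) by the number of libraries, of 6, with at least 1 methylated read, for isolated CpGs, CpGs alone in their 200 bp window with a listed CpG within 1000 bp, and CpGs in windows of at least 2. Isolated CpGs peak at 1 library (59.8%) and CpGs in shared windows at 6 libraries (60.2%).

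Detection was also compared at one number of reads. For each CpG with at least 10 reads in all libraries, the chance that 10 of its reads hold at least 1 methylated read was computed from its counts. Averaged over isolated CpGs this chance was 15.5%, 18.6% and 13.5% in care replicates 1, 2 and 3 and 16.7%, 13.6% and 15.3% in orphaned replicates 1, 2 and 3. It was 29.4% to 34.4% at CpGs alone in their window near another and 70.5% to 73.0% at CpGs in shared windows. Isolated CpGs were lower in all 6 libraries, with differences of -15.3 ± 0.731 and -56.0 ± 1.35 percentage points (SD, n = 6, exact sign-flip permutation test, p = 0.031 for each). As for the levels, the reads that listed the CpGs are counted, so these p values are not independent of the listing.

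Few methylated reads stood behind each isolated CpG. In the library where it had the most, an isolated CpG had 2 methylated reads in 4031 cases (41.2%) and 3 in 5131 (52.5%), and more than 10 in 4. In windows with at least 2 CpGs, 31.4% of CpGs had more than 10. Among the 5848 isolated CpGs with methylated reads in 1 library, 96.9% had 2 or 3 of them. The other 5 libraries together had a median of 86 reads at such a CpG, none of them methylated, which allows a level of up to 3.49% there. The single library was care replicate 1, 2 or 3 in 927, 1425 and 677 cases and orphaned replicate 1, 2 or 3 in 967, 853 and 999. The deepest library, care replicate 2, thus held the largest share (24.4%). The number of reads moved with the library too. In care replicate 2 these CpGs had a median of 3 methylated reads in 32, and in care replicates 1 and 3 they had 2 in 10 and 2 in 11.

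The level of an isolated CpG accordingly moved with its coverage. At a mean coverage under 10 reads, 1866 isolated CpGs had a mean level of 5.76%, and the mean was 3.95% at 10 to 20 reads, 2.53% at 20 to 30, 1.70% at 30 to 50 and 1.38% at 50 or more. CpGs in shared windows went from 34.5% to 15.9% over the same classes. Within each class isolated CpGs had the lowest mean, and at 30 to 50 reads they had 1.70% against 2.94% for CpGs alone in their window near another and 22.5% for CpGs in shared windows. The 45 isolated CpGs above 20% had a median coverage of 4.83 reads, against 23.2 for all isolated CpGs, and only 2 of them had 10 reads in every library.

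**Figure D3:**
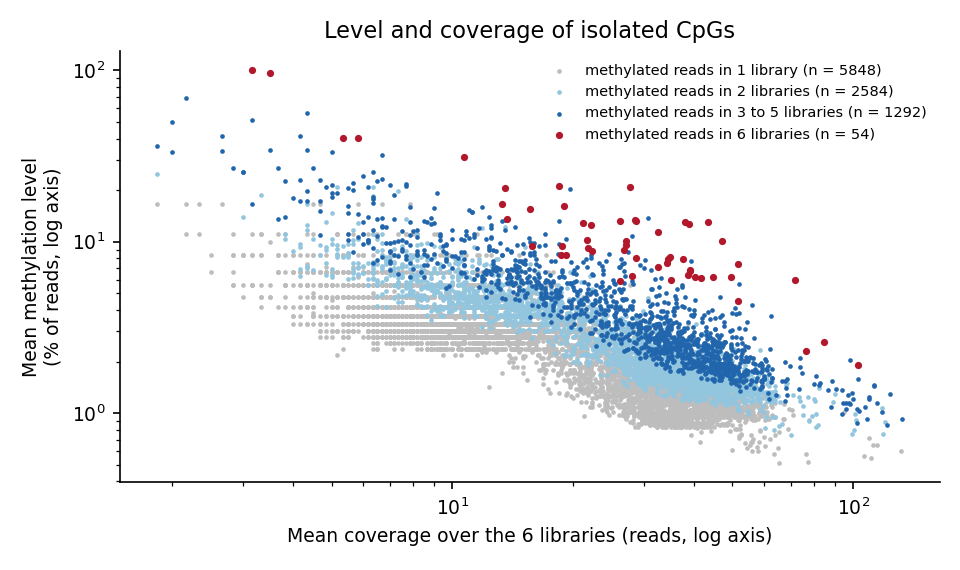
Mean methylation level (% of reads) against mean coverage (reads) of each isolated CpG over the 6 libraries, both on log axes, coloured by the number of libraries with methylated reads. The 5848 CpGs methylated in 1 library form the lower edge, which sinks as coverage grows, and the 54 CpGs methylated in all 6 libraries lie mostly towards its upper edge.

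To see isolated CpGs without the reads that listed them, the level in each library was taken over the CpGs that another library had already listed. All kept CpGs had a binomial p of at most 0.00581 against the lambda rate in at least 1 library, and this was used as the bar for listing, a choice made after the data were seen. Of the isolated CpGs, 9470 (96.9%) passed it in exactly 1 library and 308 (3.15%) in 2 or more. In windows with at least 2 CpGs, 81.6% passed it in 2 or more libraries. At isolated CpGs listed by another library, the share of methylated reads was 0.705%, 0.687% and 0.692% for care replicates 1, 2 and 3, and 0.679%, 0.632% and 0.675% for orphaned replicates 1, 2 and 3. The same measure was 25.1% to 27.1% at CpGs in shared windows and 6.14% to 7.20% at CpGs alone in their window near another.

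Lambda DNA in the same libraries read as methylated at 0.559%, 0.521% and 0.628% in care and at 0.512%, 0.510% and 0.482% in orphaned replicates 1, 2 and 3. Isolated CpGs listed elsewhere exceeded lambda in all 6 libraries, by 0.0641 to 0.193 percentage points (mean 0.143 ± 0.0454, SD, n = 6, exact sign-flip permutation test, p = 0.031). This excess is one over pooled reads. Whether it lies in the 308 isolated CpGs past the bar in 2 or more libraries was not tested. The lambda rate came from the 47 lambda positions in the deposited files, and whether it equals the rate over the whole phage was not tested. At this rate, 10.4% to 16.9% of the isolated CpGs listed elsewhere would show a methylated read at their coverage. The observed share was 10.8% to 16.8%, higher than that value in 4 libraries and lower in care replicates 2 and 3.

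**Figure D4:**
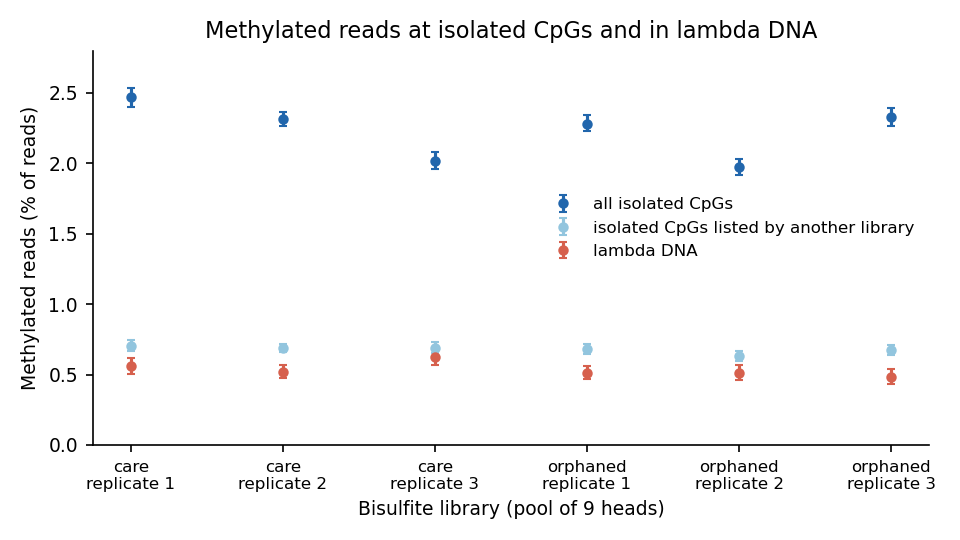
Methylated reads (% of reads) in each bisulfite library at all isolated CpGs, at isolated CpGs that another library listed, and in lambda DNA, with 95% Wilson intervals as bars. All isolated CpGs lie between 1.98% and 2.47%, while those listed by another library lie between 0.632% and 0.705%, above the lambda values of 0.482% to 0.628%.

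A small set of isolated CpGs carried methylated reads repeatedly. The 54 CpGs with methylated reads in all 6 libraries lay on 46 scaffolds, at mean levels of 1.91% to 100% with a median of 9.27%. Of these, 30 were below 10%, 16 lay between 10% and 20% and 8 were above 20%. Their mean level was 14.9% ± 1.74 in care and 14.2% ± 0.491 in orphaned libraries (SD, n = 3 pools each), a difference within the spread (exact permutation test, p = 0.5). Methylated reads in both groups were required of these 54 CpGs, so the test used the reads that chose them and is a description only. The 308 isolated CpGs past the bar in at least 2 libraries had a median level of 7.87%. They passed it in both groups in 208 cases, in care alone in 53 and in orphaned alone in 47. Their mean level was 11.6% ± 0.0806 in care and 10.9% ± 0.717 in orphaned libraries, a difference of -0.641 points (exact permutation test, p = 0.1, the smallest possible, n = 3 each). The same reads chose these CpGs, some through 1 group alone, so this difference is given as a description only.

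Only 6 isolated CpGs passed the bar in all 6 libraries, and they are named here after their values were seen. Position 872458 of scaffold9 had 3 methylated reads of 27, 9 of 76 and 3 of 26 in care replicates 1, 2 and 3, and 5 of 41, 3 of 26 and 7 of 38 in the orphaned ones. Its level stayed between 11.1% and 18.4%, 9255 bp from the nearest listed CpG. Position 568055 of scaffold514.2 had 36 methylated reads of 260, with levels of 8.57% to 17.9%, and position 756657 of scaffold147.2 had 16 of 127, with levels of 9.09% to 17.6%. At each of these CpGs the care and orphaned levels overlapped, on 2 to 15 methylated reads per library. Being past the bar in all 6 libraries required methylated reads in both groups. At position 339 of scaffold4197, the only listed CpG of its scaffold, all 19 reads were methylated, and at position 705381 of scaffold211.2 it was 20 of 21. Both had 1 to 6 reads per library, so their high levels rest on little depth.

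Among isolated CpGs with at least 10 reads in every library, the highest mean level was 21.2%, at position 1053771 of scaffold291.2. It had 4 methylated reads of 13, 2 of 23 and 4 of 11 in care replicates 1, 2 and 3, and 5 of 22, 4 of 16 and 1 of 26 in orphaned replicates 1, 2 and 3. Position 3351 of scaffold3360 followed with 20.9%, and is the last of the 6 above. It had 5 of 12, 8 of 57 and 5 of 20 methylated reads in care and 3 of 37, 2 of 16 and 6 of 25 in the orphaned libraries. Position 788921 of scaffold39.2, 24083 bp from the nearest listed CpG, had a mean level of 16.6%. In all 3 the care and orphaned levels overlapped.

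Even recurrent CpGs could be close to the bulk of the isolated ones. Those with methylated reads in all 6 libraries and nearest to the median level were well covered, which such a choice favours. Position 3375 of scaffold272.2 had 12 methylated reads of 509, position 27741 of scaffold560 had 10 of 459, and position 4985 of scaffold2557 had 11 of 617. Their mean levels were 2.60%, 2.30% and 1.91%. In some libraries they had a single methylated read, such as 1 of 134 in care replicate 2 at position 3375 of scaffold272.2. Lambda DNA of that library read as methylated at 0.521%, so a single read at such depth does not set a library apart from incomplete conversion. At the other end were CpGs with many methylated reads in a single pool. Position 496741 of scaffold153.2 had 5 methylated reads of 77 in care replicate 2 and none of 60, 58, 76, 52 and 53 in the other libraries. Position 99956 of scaffold110.2 had 5 of 108 in the same library, and position 154 of scaffold91.2 had 5 of 116 in care replicate 3. The other 5 libraries had no methylated read at either, among 283 and 541 reads.

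Care and orphaned libraries were then compared at isolated CpGs as a whole. The mean level was 3.37% ± 0.429 in care and 2.99% ± 0.359 in orphaned libraries (SD, n = 3 pools each). The difference, orphaned minus care, was -0.381 percentage points, within the range over which libraries of one group varied (exact permutation test over libraries, two-sided, p = 0.3, and 3 against 3 allow no p under 0.1). It was -0.125 points over the isolated CpGs with at least 10 reads in every library, and between -0.612 without care replicate 3 and -0.188 without care replicate 1. Over reads, 2.27% ± 0.229 were methylated in care and 2.20% ± 0.191 in orphaned libraries (difference -0.0724 points, exact permutation test, p = 0.6, n = 3 each). This difference changed sign to 0.0283 without care replicate 1 and to 0.0373 without orphaned replicate 2. The chance of a methylated read in 10 reads was 15.9% ± 2.56 in care and 15.2% ± 1.54 in orphaned libraries (exact permutation test, p = 0.7, n = 3 each). Its difference of -0.642 points became 0.719 without care replicate 2 and 0.145 without orphaned replicate 2. All these measures count the reads by which a library listed CpGs itself, so they are not free of the listing. The comparison over CpGs listed by another library is given below.

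CpGs in shared windows differed by -0.891 points in the mean level (exact permutation test, p = 0.1, the smallest possible, n = 3 each). Every care library lay above every orphaned one there. The gap between isolated CpGs and CpGs in shared windows was -25.7 ± 0.323 points in care and -25.2 ± 0.189 in orphaned libraries. The group difference was thus not shown to depend on isolation (exact permutation test, p = 0.2, n = 3 each). With at least 10 reads in every library this difference between the gaps grew from 0.509 to 0.819 points and the groups no longer overlapped (exact permutation test, p = 0.1, the smallest possible, n = 3 each). Over the isolated CpGs listed by another library, methylated reads were 0.695% ± 0.00954 in care and 0.662% ± 0.0262 in orphaned libraries. Here every care library lay above every orphaned one, with a difference of -0.0327 points (exact permutation test, p = 0.1, the smallest possible, n = 3 each). The lambda rate was 0.521% to 0.628% in care and 0.482% to 0.512% in orphaned libraries. With the lambda rate of each library subtracted, the groups overlapped and the difference was 0.0352 points in the other direction (exact permutation test, p = 0.4, n = 3 each).

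Methylated reads were found in care libraries alone at 3611 isolated CpGs (36.9%, against 3.78% of all kept CpGs) and in orphaned libraries alone at 3330 (34.1%, against 4.43%). Both groups had them at 2837 (29.0%). With methylated reads in a single library at 5848 isolated CpGs, a pattern of 1 group alone is fixed for these. The share of isolated CpGs with methylated reads was 27.6% ± 8.09 per care library and 26.1% ± 2.42 per orphaned library (exact permutation test, p = 0.9, n = 3 each). The lowest share, 20.9%, and the highest, 36.6%, were those of care replicates 3 and 2, which had the fewest and the most reads at these CpGs. All 3 care libraries and no orphaned library had methylated reads at 44 isolated CpGs (0.450%), against 0.299% of all kept CpGs. The reverse held at 31 (0.317%), against 0.559%. Levels of every care library lay above those of every orphaned library at 69 isolated CpGs (0.706%), against 5.55% of all kept CpGs. The other direction was found at 45 (0.460%), against 3.62%.

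No single isolated CpG was called. Each kept CpG was tested by a logistic regression of methylated reads on group without overdispersion (a likelihood ratio test), with Benjamini-Hochberg adjustment over all 273427 and a call at an adjusted p of 0.01 and more than 5 percentage points. The count was 0 among isolated CpGs and 0% of all kept CpGs, in both directions, and the smallest adjusted p was 0.489 among isolated CpGs. Fisher's exact test and a Cochran-Mantel-Haenszel test within replicate numbers called 0 as well. At an unadjusted p under 0.05 the likelihood ratio test gave 1808 isolated CpGs (18.5%) higher in care, against 6.10% of all kept CpGs, and 1575 (16.1%) higher in orphaned libraries, against 3.93%. Of these 3383, 3338 had no methylated read in one group and 2370 had methylated reads in 1 library. Since 9470 isolated CpGs passed the bar for listing in exactly 1 library, the listing itself gives such contrasts, and nothing about care is read from these shares. Fisher's exact test on the same reads gave 117 (1.20%) higher in care, against 3.08% of all kept CpGs, and 198 (2.02%) higher in orphaned libraries, against 1.50%. The Cochran-Mantel-Haenszel test gave 1613 (16.5%), against 7.24%. The pooled median was 68 reads in care and 69 in orphaned libraries. At this depth 3 methylated reads against 0 gave an unadjusted p under 0.05, while 20 (29.4% of reads) against 0 would have been needed for a first call, so smaller differences at a CpG of median depth were not detectable.

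Some isolated CpGs are given as a description. They had the smallest p in each direction among those with at least 10 reads in every library and no overlap between groups. Choosing them without overlap fixed their exact permutation p in advance, and their likelihood ratio p is the smallest of many under this choice. Over all isolated CpGs the smallest p of that test was 0.000631. Position 300644 of scaffold49.2 had 2 methylated reads of 21, 6 of 49 and 3 of 15 in care replicates 1, 2 and 3, and 1 of 29, 0 of 24 and 0 of 23 in orphaned replicates 1, 2 and 3. Pooled reads differed by -11.6 percentage points (likelihood ratio test, p = 0.00235, adjusted p = 0.489, and exact permutation test of the library levels, p = 0.1). Position 254991 of scaffold358.2 had 1 methylated read of 20, 3 of 38 and 1 of 23 in care and none of 49, 36 and 40 in the orphaned libraries. Its orphaned levels could be as high as 6.12% to 8.33% with no methylated read seen. At position 2702103 of scaffold39.2 the care libraries had 3 of 23, 1 of 27 and 1 of 17 methylated reads and the orphaned libraries none of 29, 33 and 33. All 3 CpGs thus rested on 1 to 6 methylated reads per care library.

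In the other direction, position 196045 of scaffold46.2 had 3 of 22, 1 of 13 and 4 of 21 methylated reads in orphaned replicates 1, 2 and 3, and 0 of 18, 1 of 36 and 0 of 32 in care replicates 1, 2 and 3. The pooled difference was 13.1 points (likelihood ratio test, p = 0.00137, adjusted p = 0.489, and exact permutation test of the library levels, p = 0.1). Here too the permutation p was fixed by the choice of the CpG. Position 105836 of scaffold61 had 3 of 38, 1 of 31 and 1 of 38 methylated reads in orphaned libraries and none of 47, 78 and 47 in care. Position 261969 of scaffold71 had 1 of 40, 3 of 42 and 1 of 34, against none of 43, 85 and 41. The adjusted p was 0.489 at both. These differences were 4.67 and 4.31 points, and none of the 6 CpGs was past the threshold after adjustment.

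**Figure D5:**
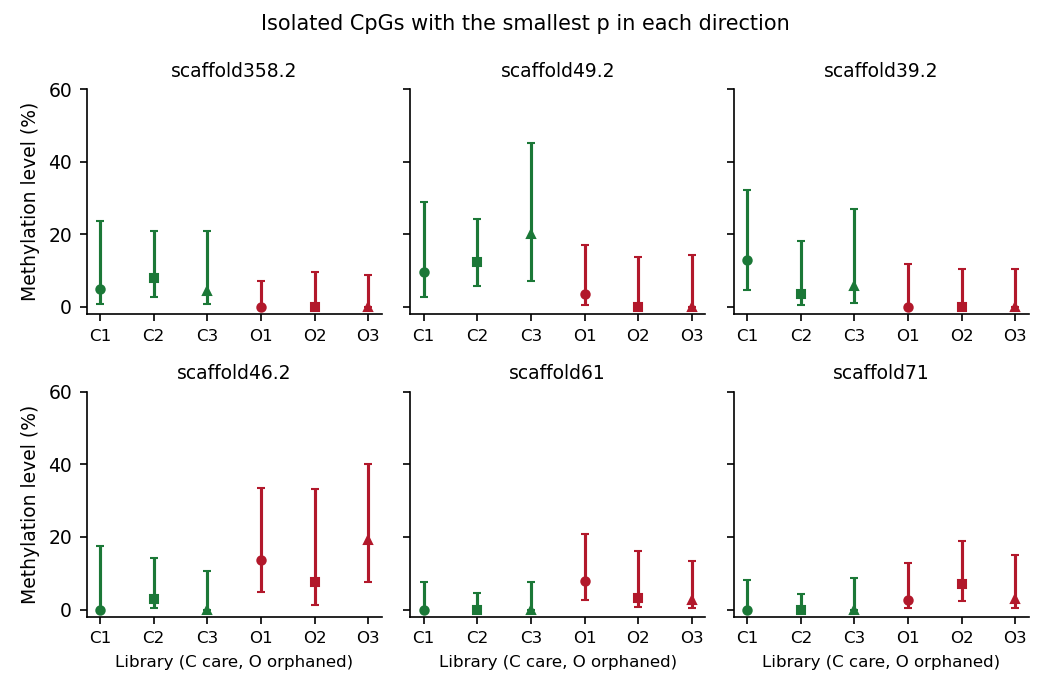
Methylation level (%) in each library at isolated CpGs named by scaffold, with 95% Wilson intervals. They had the smallest p in each direction among those with at least 10 reads in every library and no overlap between groups. C1 to C3 are care and O1 to O3 orphaned replicates; the upper row is higher in care and the lower row higher in orphaned libraries, with levels from 0% to 20% and intervals of the groups that overlap at each CpG.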

How the data were processed

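Heads of C. calcarata were bisulfite sequenced in 6 pools. The authors trimmed the reads with Trimmomatic 0.32 and aligned them to the C. calcarata assembly with Bismark 0.14.5, per the submitters' processing notes and the study's methods. They removed duplicates, merged strands, and, by the study's methods, filtered CpGs with a binomial test against the lambda rate in any library. For each CpG the authors deposited its coverage, a count of reads, and the percent of these that were methylated or unmethylated. Percent times coverage was whole in 100% of 1669074 values, within 0.01 reads. Positions are those of the files. The RNA counts of the series were not used here.

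Isolated CpGs, tests and alternatives follow the text of the report. The window of 200 bp, the coverage limits and the call follow the study's methods, which left out windows of 1 CpG. CpGs with at least 10 reads in every library were named: in each direction the 3 with the smallest p and no overlap between groups, the 3 with the highest level, the 3 with the most methylated reads among those methylated in 1 library, and the 3 recurrent ones nearest the median level. The 2 CpGs farthest from listed CpGs on both sides were named too, without a depth limit. The members and these rules were chosen with earlier results of these data known. Alternatives were other coverage limits, distances of 500 and 2000 bp, kept CpGs alone as neighbours, other tests, thresholds and read numbers, lambda subtracted, CpGs listed by another library, leaving out each library, and blocking on the replicate number. The scripts were tested on simulated data. The tools were Python 3.11.15 with pandas 2.3.3, scipy 1.17.1, numpy 2.4.6 and, for plots, matplotlib 3.10.9.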

Additional observations from a re-analysis of the deposited data

How the results depend on the processing

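The group differences and the gaps were recomputed 82 times, and 7 of these values could not move, such as a gap with 1 lambda rate subtracted from both sides. Of the other 75, 56 kept their direction and their side of the threshold, 7 changed direction and 12 were gaps with a library left out. The difference in methylated reads at isolated CpGs (-0.0724 percentage points, orphaned minus care) was 0.0355 with at least 10 reads in every library, and it ran from -0.197 to 0.0373 with each library left out. The difference in the chance of a methylated read was 0.422 points with 15 reads in place of 10, and it ran from -1.83 to 0.719 with each library left out. The gap of isolated CpGs to CpGs near another ran from -9.27 to -9.11 points, and that to CpGs in shared windows from -25.6 to -25.4, with each library left out. There the exact sign-flip permutation test gave p = 0.0625, the smallest that 5 libraries allow, and with all 6 libraries both gaps stayed past 0.05 in each other alternative. The difference in the mean level ran from -0.612 to -0.188 points with each library left out and was -0.0854 points over CpGs listed by another library at the bar of all kept CpGs, an alternative chosen after the data were seen. With the lambda rate subtracted there, also chosen after the data were seen, it was -0.0175 points and the difference in methylated reads was 0.0352. The group difference of the gap to shared windows was 0.819 points with at least 10 reads in every library, and that of the mean level was -0.125. The bar that all listed CpGs reach, including those not kept, was a p of 0.997 and amounts to 1 methylated read in another library. No isolated CpG was called in any of the 16 alternatives for calls. A regression with overdispersion estimated in each CpG could not make calls with 6 libraries, so its count of 0 says nothing about stability, and it gave 44 isolated CpGs at an unadjusted p under 0.05. At the named CpGs 1 of 153 values changed direction, at position 1053771 of scaffold291.2, where the difference ran from -17.7 to 2.41 points with each library left out. Most of these values could not change direction, so the count says little about stability. Fisher's exact test and the regression with overdispersion left the difference as it was. CpGs chosen without overlap, or with methylated reads in 1 library, could not reverse under any alternative. The labels give both groups replicates 1 to 3, but do not say that libraries of the same number belong together. Such libraries hardly deviated together (r over isolated CpGs of -0.00727, 0.0196 and 0.0159), and care and orphaned libraries of other numbers had r of -0.0222 to 0.00529. Methylated reads were few at isolated CpGs, so such an r cannot show whether a number stands for a shared batch. With the replicate block the difference in the mean level was -0.381 points (exact sign-flip permutation test, p = 0.5, where 3 pairs allow no p under 0.25), and 0 CpGs were called.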

Other observations

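The 226 listed CpGs that were as remote as the isolated ones but had coverage above 170 in some library had median coverages of 239 to 395.5 reads. Their reads were methylated at 0.720%, 0.586% and 0.533% in care replicates 1, 2 and 3 and at 0.542%, 0.529% and 0.643% in orphaned replicates 1, 2 and 3. These values lay above the lambda rate of the same library in 5 of 6 cases and below it in care replicate 3. The reads that listed these CpGs are counted in, so the comparison with lambda is not free of the listing.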
